A study of Caenorhabditis elegans with 4 samples.

Results

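Small nucleolar RNA (snoRNA) genes with a region of CES-1 ChIP-seq signal near their 5′ end numbered 170 of the 346 genes annotated as snoRNA in the *Caenorhabditis elegans* genome (WBcel235, ce11; Ensembl release 115), or 49.1%. A gene was chosen when the summit of a region in the list pooled over all libraries lay between 1000 bp upstream and 200 bp downstream of its 5′ end, so the genes were selected on the pooled regions, whose presence and signal are given as a description. Of all 46926 annotated genes, 16324 or 34.8% met the same condition at any of their annotated transcript starts. Chromatin immunoprecipitation with sequencing (ChIP-seq), which recovers the DNA bound by a tagged protein, had been done on whole L4 larvae, the last larval stage, of strain OP174. That strain has the allele unc-119(ed3) and the integrated transgene wgIs174, a ces-1 gene tagged with TY1, EGFP and FLAG that comes with unc-119. The single group holds 4 biological replicates of males and females pooled, with no second genotype or treatment and 1 control shared by all libraries, per the file records, and not analysed here. Fragments of 150 to 350 bp are stated for replicates 1 and 2, and microtip sonication for replicates 3 and 4. The labels do not state the promoter that drives the tagged gene or the cells that express it. A whole-animal library cannot tell which cells a region comes from.

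Each library was deposited as a list of 30000 regions that includes weak ones, the pooled list holds 25493 regions, and 1033 peaks passed the submitters' irreproducible discovery rate (IDR) step, which keeps regions that rank alike in replicate lists. Read depth is unknown, and the deposited signal of a region has no stated scale, so signal is compared within 1 list only and values are set across libraries as ranks or percentiles within each list. A percentile of 100 is the strongest end of a list. Where the libraries differ, the number of libraries limits the precision.

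CES-1 belongs to the Snail family of zinc finger transcription factors and is known in this worm for its part in deciding which cells undergo programmed death and for binding E-box sequences. Small nucleolar RNAs guide the chemical modification of ribosomal and other RNAs: those with boxes C and D guide ribose methylation with fibrillarin, and those with boxes H and ACA guide the change of uridine to pseudouridine. Many are processed out of the introns of host genes, often genes of the translation machinery, and others are transcribed from a promoter of their own; RNA polymerase III reads internal promoter elements, the A box and B box of tRNA genes, through the factor TFIIIC.

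The strongest region of 59 of the 170 genes had its summit within 100 bp of the snoRNA gene's own 5′ end, and 19 of those 59 had an IDR peak. The DNA directly before 10 of these 19 genes is shown: 9 carry letters that recur in the set, and M7.15 is shown as one that does not. Each sequence runs 5′ to 3′ on the strand of the gene, in ce11, from 120 bases before the annotated 5′ end to the first 30 bases of the gene. Capitals mark matches to the letters GNNNAGTGG, which occur in the A box of many tRNA genes, to GTTCNANNC, a form of the B box, or to GCGGAACCC, a second recurrent element. The first 6 genes hold a form of the B box shortly before the gene, and the first 3 of them also hold the A box letters 42 or 43 bases ahead of it.
M106.6 (chrII:10840197-10840346, + strand): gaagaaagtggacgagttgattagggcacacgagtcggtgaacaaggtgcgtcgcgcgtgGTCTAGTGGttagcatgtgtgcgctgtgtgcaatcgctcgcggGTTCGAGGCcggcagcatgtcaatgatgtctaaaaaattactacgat
C04G6.12 (chrII:5105202-5105351, - strand): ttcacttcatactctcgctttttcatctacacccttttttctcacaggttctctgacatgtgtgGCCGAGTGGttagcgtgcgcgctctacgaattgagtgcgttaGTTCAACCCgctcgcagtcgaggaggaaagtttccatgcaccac
F30H5.4 (chrIII:502684-502833, + strand): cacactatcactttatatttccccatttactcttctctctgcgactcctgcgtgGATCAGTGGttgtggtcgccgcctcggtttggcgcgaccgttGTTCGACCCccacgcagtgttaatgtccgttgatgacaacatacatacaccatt
F32E10.10 (chrIV:7574002-7574151, + strand): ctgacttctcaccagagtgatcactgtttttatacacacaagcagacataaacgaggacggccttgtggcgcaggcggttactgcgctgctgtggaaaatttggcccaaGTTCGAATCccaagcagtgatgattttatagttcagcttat
C51F7.3 (chrV:12303588-12303737, + strand): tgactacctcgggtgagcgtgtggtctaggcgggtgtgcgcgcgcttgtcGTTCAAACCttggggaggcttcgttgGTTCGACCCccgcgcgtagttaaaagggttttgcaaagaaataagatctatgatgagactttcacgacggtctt
Y38F2AR.14 (chrIV:2408606-2408755, - strand): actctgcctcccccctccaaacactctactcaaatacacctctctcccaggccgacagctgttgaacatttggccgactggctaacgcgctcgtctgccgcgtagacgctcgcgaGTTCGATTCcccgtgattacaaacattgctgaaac

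The next 3 genes have GCGGAACCC in place of the boxes, and M7.15, the strongest of these 10 genes by pooled signal, holds no match to any of these letters.
Y53F4B.47 (chrII:15025864-15026013, - strand): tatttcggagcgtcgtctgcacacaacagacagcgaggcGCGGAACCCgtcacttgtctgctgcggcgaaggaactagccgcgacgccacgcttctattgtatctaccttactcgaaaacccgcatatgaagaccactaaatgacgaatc
smy-2 (chrIV:9511437-9511586, - strand): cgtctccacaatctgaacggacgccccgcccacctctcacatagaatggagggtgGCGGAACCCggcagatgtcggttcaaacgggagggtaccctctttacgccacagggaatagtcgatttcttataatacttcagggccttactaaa
C16D9.11 (chrV:8228940-8229089, - strand): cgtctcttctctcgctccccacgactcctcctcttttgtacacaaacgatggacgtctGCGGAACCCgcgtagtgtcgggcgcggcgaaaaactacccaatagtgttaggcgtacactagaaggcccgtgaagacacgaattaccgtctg
M7.15 (chrIV:11083027-11083176, + strand): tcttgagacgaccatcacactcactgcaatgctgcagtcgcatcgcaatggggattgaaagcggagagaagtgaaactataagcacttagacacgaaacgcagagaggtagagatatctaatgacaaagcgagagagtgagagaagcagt

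The B box form GTTCGANNC, in the sense of the gene, lay between 150 bp upstream and 50 bp downstream of the 5′ end in 20 of 346 snoRNA genes, against 169 of 29796 protein-coding transcript starts. It was present in 12 of the 59 genes with the strongest region at their own 5′ end and in 6 of the 19 that also had an IDR peak there. Only 2 of the 176 snoRNA genes without a pooled region had it. The wider form GTTCNANNC, chosen after the sequences had been seen, was found in 21 of the 59, in 11 of the 19, in 14 of the 176 without a region and in 3.45% of protein-coding transcript starts. In the 21 genes its first base lay at a median of 12 bp before the 5′ end, and in 19 of them between 60 and 1 bp before it. GCGGAACCC, also chosen after the sequences had been seen, was held by 17 snoRNA genes, 6 of the 59, 3 of the 19 and 7 of the 176 without a region, and by 18 of the protein-coding starts. None of the 19 genes held both the wider B box and GCGGAACCC, and 14 held 1 of them. C51F7.3 and C51F7.4 count the same stretch, since the window of the latter reaches the letters before the former.

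The A box letters, like the wider B box, were chosen after the sequences had been seen. Both boxes together were read in 14 snoRNA genes, and in 12 of these the first base of the A box letters preceded that of the B box by 41 to 43 bp. Of 29796 protein-coding transcript starts, 23 held both, 5 of them at a spacing of 40 to 45 bp. All 8 of the genes with both boxes and the strongest region at their own 5′ end had that spacing: T19B4.8, ZK484.9, C04G6.12, M106.6, F30H5.4, T03F7.8, Y43F8C.22 and ZK546.18. Of 634 annotated tRNA genes, 92.6% held GTTCNANNC within the gene and 264 held both sets of letters, at a median spacing of 42 bp. No annotated tRNA gene overlapped the window of any of the 45 snoRNA genes with the wider B box, and none lay within 500 bp of the strongest summit of any of the 31 genes with an IDR peak. Among the 59 genes with the strongest region at their own 5′ end, 2 had a tRNA gene within 500 bp of the summit. The letters match tRNA promoter elements, and whether a factor reads them was not tested.

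Around the summits themselves, within 50 bp and on either strand, GTTCGANNC was present at 11 of the 58 distinct regions at own 5′ ends (19.0%), at 1 of 29 regions at host gene 5′ ends and at 248 of all 25493 pooled regions (0.973%). The E-box CAGGTG, the usual site of Snail-family factors, was present at 4 of the 161 distinct regions of the 170 genes (2.48%) and at 2.13% of all pooled regions. It was present at 0 of the 18 distinct IDR regions at own 5′ ends, beside 10 of all 1033 IDR peaks (0.968%). Any E-box (CANNTG) was present at 36.0% of the 161 regions and 30.1% of all pooled regions. TATAAA was present at 13.0% and 11.6%.

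All 346 snoRNA genes, with or without a pooled region, were split by the letters before the gene. This gave the share with a summit of a library's own region within 100 bp of the 5′ end. Of the 20 genes with GTTCGANNC, the shares in replicates 1 to 4 were 55%, 60%, 60% and 25%, a mean of 50% ± 16.8 (SD, n = 4 libraries). Of the 326 genes without it, the shares were 16.3%, 13.5%, 15.95% and 12.6%, a mean of 14.6% ± 1.82 (SD, n = 4). The share was higher with the letters in each of the 4 libraries, and the lowest share with them exceeded the highest without. Replicate 4 stood lower than the others among the genes with the letters, at 5 of 20 genes. The same genes were counted in every library and the letters were chosen with results of these data known, so no test is given. GCGGAACCC was picked after the sequences of genes chosen on the pooled list had been seen, and the libraries feed that list. The shares are therefore not independent of the pooled list. With GCGGAACCC the mean was 32.4% ± 10.2 in 17 genes and without it 15.8% ± 2.52 in 329 genes; in replicate 2 the share with the letters, 17.6%, was close to the 16.1% without them.

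**Figure D1:**
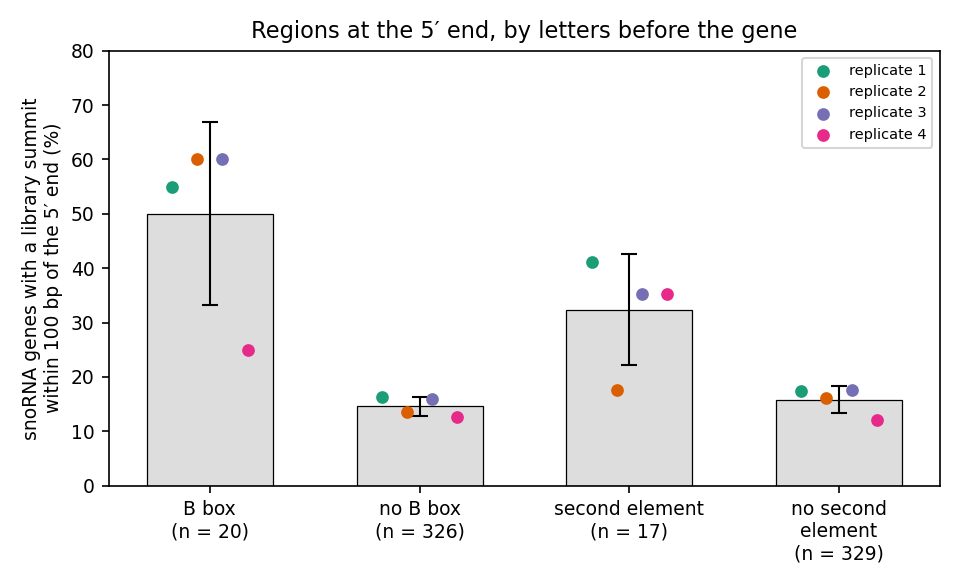
Share of snoRNA genes with a library summit within 100 bp of the 5′ end (y axis, %), for genes with and without the B box letters or the second element before the gene. Bars are the mean over 4 libraries, error bars the SD and points the libraries; all 4 B box points, from 25% to 60%, lie above the 4 points of the genes without it.

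Summits of the single libraries gathered at the 5′ ends of snoRNA genes taken as a class, which includes the genes chosen on the pooled regions. Genes without a pooled region were not profiled apart, and the ratio was not taken for other gene types. Within 200 bp of the 5′ ends of all 346 genes, the 4 libraries held 113, 92, 97 and 96 summits, counted gene by gene. A summit near several snoRNA genes was counted for each of them. These counts were 2.18, 1.89, 2.14 and 1.92 times the density between 1000 and 3000 bp away on both sides, a mean of 2.03 ± 0.15 (SD, n = 4). For the 124 genes that stand alone, outside any protein-coding gene, the ratio was 2.35 ± 0.26, and for the 150 genes in an intron of a protein-coding gene on the same strand it was 1.78 ± 0.18. Each library had a higher ratio at standalone genes than at intronic ones.

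**Figure D2:**
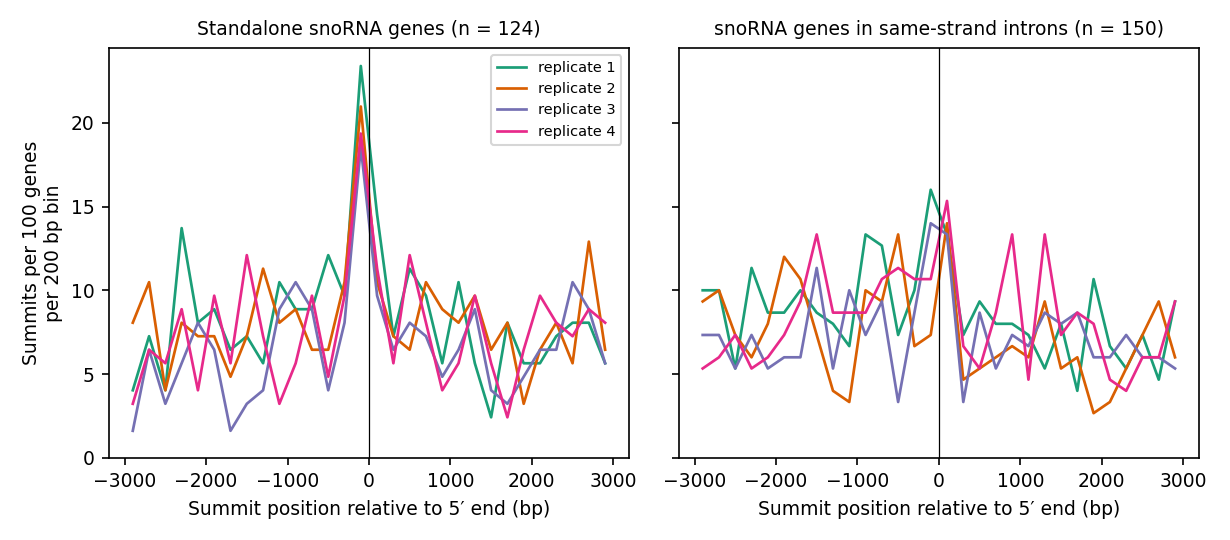
Summits per 100 genes in bins of 200 bp (y axis) by position relative to the 5′ end in bp (x axis), 1 line for each library, for standalone snoRNA genes (left) and those in same-strand introns (right). The highest bin of every line adjoins the 5′ end. On the right, replicate 2 reached 14 from 0 to 200 bp, against 7.33 from -200 to 0 bp and 13.3 from -600 to -400 bp. The mean ratio of the centre to the flanks was 2.35 on the left and 1.78 on the right.

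Of the 170 genes, 31 had an IDR peak with its summit in the window (18.2%), against 979 or 6.0% of the 16324 genes of any type with a pooled region there. The 31 had 28 distinct peaks when the strongest of each gene was taken. By gene type the share was 15.9% for tRNA, 15% for lincRNA, 13.6% for snRNA, 9.68% for miRNA, 7.27% for protein-coding and 1.42% for piRNA genes. The IDR list derives from the pooled list that chose the genes, and pooled signal separates these 31 from the rest: the weakest with an IDR peak had a pooled signal of 45.1 and the strongest without one 43.0. Within 100 bp of the 5′ end, 66 snoRNA genes had a pooled summit (19.1%, against 8.09% of all genes), and 20 of those 66 had an IDR summit there (30.3%, against 6.43%). For tRNA genes the same 2 shares were 37.7% and 14.6%, for snRNA genes 12.4% and 31.2% (5 of 16 genes), and for protein-coding genes 8.02% and 4.74%. A region of a library was in the window in all 4 libraries for 64 of the 170 (37.6%, against 20.6% of the 16324 genes), in 3 libraries for 59, in 2 for 33, in 1 for 11 and in none for 3. The share with all 4 was close to that of tRNA (34.6%), snRNA (34.1%) and miRNA genes (33.3%). It was 26.3% for protein-coding and 7.47% for piRNA genes.

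Single libraries placed the strongest region of these genes at a median percentile of 85.7, 88.2, 77.6 and 88.3 in replicates 1 to 4, a mean of 84.9 ± 5.02 (SD, n = 4), over the 129, 133, 115 and 133 genes that had one. For all genes with a pooled region the medians were 71.0, 71.9, 64.2 and 68.6, a mean of 68.9 ± 3.44. The snoRNA genes were higher in every library, and replicate 3 was the lowest in both sets. Both sets were chosen on the pooled list that the libraries feed. Regions among the 2000 strongest of a library were found for 44, 42, 38 and 53 of the 170 genes.

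**Figure D3:**
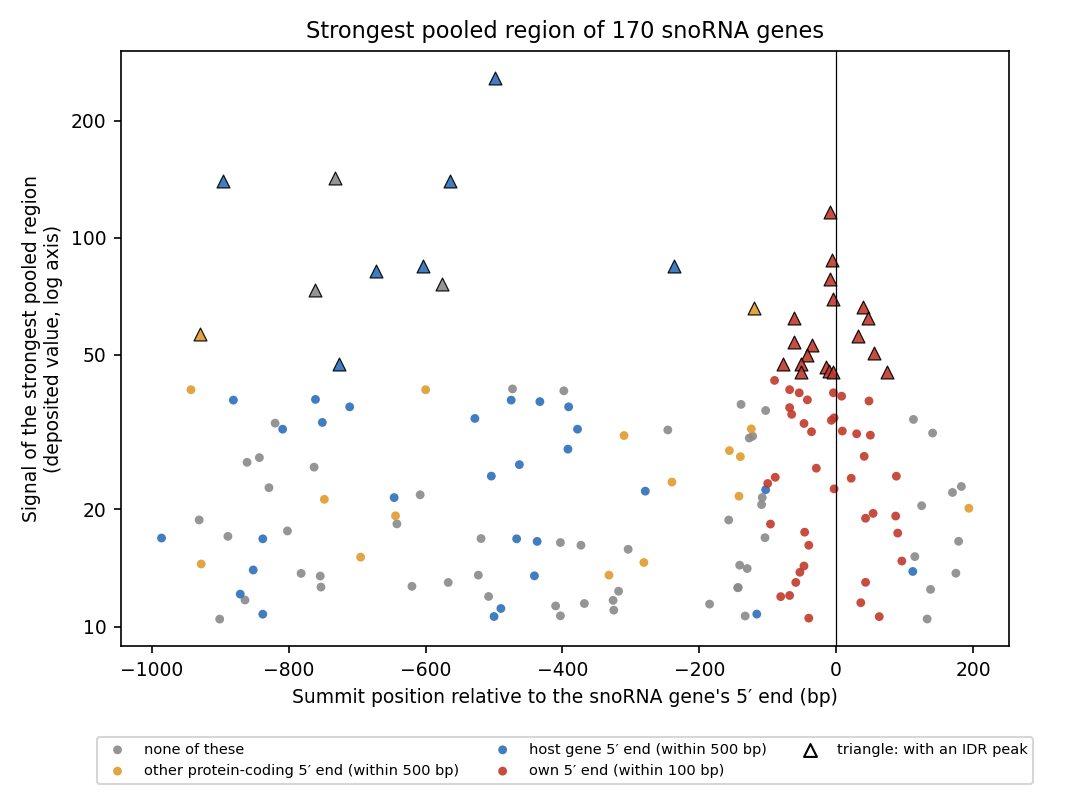
Deposited signal of the strongest pooled region (y axis, log scale) of each of the 170 snoRNA genes against the position of its summit relative to the gene's 5′ end in bp (x axis). Colours give the 5′ end at which the summit lies and triangles the 31 genes with an IDR peak; 59 genes lie within 100 bp of 0, 19 of them with an IDR peak, and the strongest point, at 257.8, lies at a host gene's 5′ end.

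By position in the annotation, 77 of the 170 genes lay in an intron of a protein-coding gene on the same strand, 65 stood alone, 15 overlapped an exon and 13 lay in an intron on the opposite strand. Standalone and same-strand intronic snoRNA genes had a pooled region about as often, 65 of 124 and 77 of 150. In the standalone set 24 genes had their strongest region at their own 5′ end. In the same-strand intronic set 22 did, 35 had it within 500 bp of the 5′ end of the host gene, 4 within 500 bp of another protein-coding 5′ end and 16 at none of these. These classes of place were set after the values had been seen. The snoRNA gene's own 5′ end was assigned first and the host's next, so the start of another gene, protein-coding or not, can lie nearer to the summit. The median pooled signal was 33.9 at own 5′ ends, 28.6 at host 5′ ends, 23.5 at other protein-coding 5′ ends and 16.8 elsewhere.

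**Figure D4:**
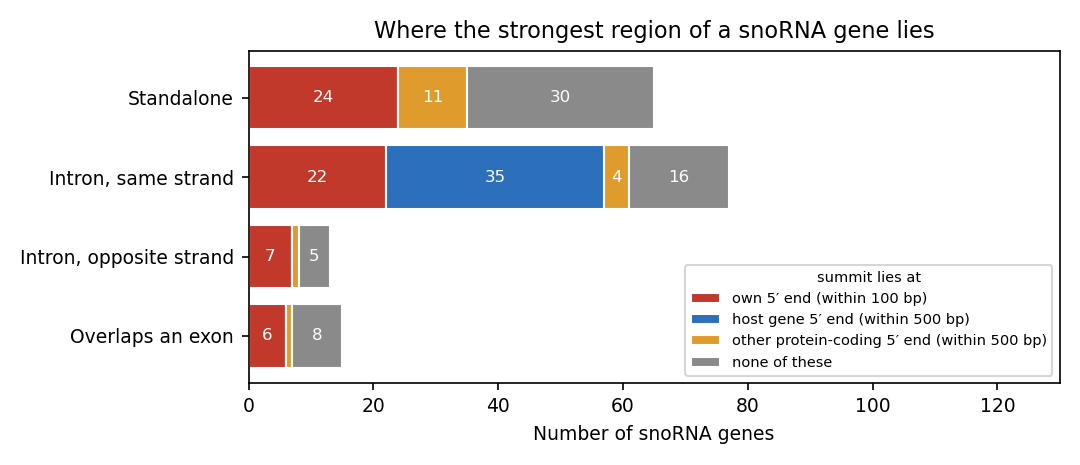
Number of the 170 snoRNA genes (x axis) by their position in the annotation (rows), coloured by the 5′ end at which the strongest summit lies. Own 5′ ends take 24 of the 65 standalone genes and 22 of the 77 same-strand intronic genes, and host 5′ ends take 35 of the latter.

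Intronic genes with a region at their own 5′ end lay a median of 1570 bp downstream of the nearest start among the host transcripts that contain them (453 to 16098 bp, n = 22 genes). Other transcripts of a host can start nearer to the summit, for example at 217 bp for smy-2 in C33A12.3, 222 bp for D1046.6 in cfim-2 and 283 bp for Y37E3.20 in pcyt-2.1. Those with a region at the host 5′ end lay a median of 335 bp from the start of a containing transcript (75 to 1342 bp, n = 35 genes). The window of the rule and the 500 bp limit cap that distance for the latter genes and not for the former, so the medians are not a comparison. Of the 59 own-end genes, 43 had no protein-coding 5′ end within 500 bp of the summit, and 17 of the 19 with an IDR peak had none. Starts of other gene types were not counted there. At T27A3.9 an ncRNA start lay 31 bp from the summit and the own 5′ end 35 bp. At D2021.6 an ncRNA start lay 28 bp away and the own 5′ end 9 bp. Summits lay upstream of the 5′ end in 38 of the 59 and at or downstream of it in 21, with a median position 9 bp upstream. Own-end genes were also short: their median length was 87 bp, against 130 bp over all 346 snoRNA genes, and 17 of the 19 with an IDR peak were at most 100 bp long.

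T19B4.8, standalone and 74 bp long, holds both boxes and had the strongest own-end region, with a pooled signal of 116.5. It lies outside any protein-coding gene but overlaps an exon of a gene of another type. The summit at T19B4.8 lay 9 bp upstream of the 5′ end, and the region ranked 140, 137, 111 and 299 of 30000 in replicates 1 to 4. It was near the top of every library. M7.15, standalone, with its summit 594 bp from the start of klc-1 (a kinesin light chain gene), had a pooled signal of 87.9 and ranked 199, 523 and 81 in replicates 1, 2 and 4, while replicate 3 had no region over the pooled one. ZK994.7, deep in an intron of pxn-1 (a peroxidasin gene, 5690 bp from its start), had a pooled signal of 78.2 and ranks of 584, 2411, 98 and 86. Replicates 3 and 4 placed it far above replicates 1 and 2.

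F32E10.10, standalone and with the B box shown above, had a pooled signal of 69.7 and ranked 1203, 701, 614 and 174 in replicates 1 to 4. smy-2 in C33A12.3, with the second element, had a pooled signal of 66.2 and ranks of 1769, 2536, 130 and 105, and the same 2 libraries were again the higher. C51F7.3 and C51F7.4, neighbours in frm-7 (a FERM domain gene), shared 1 region with a pooled signal of 62.1 that ranked 317, 10858, 123 and 359. Replicate 2 was far below the other 3 libraries. M106.6 in mix-1, a condensin subunit gene whose start lies 16071 bp away, had a pooled signal of 55.8 and ranked 973, 484 and 930 in replicates 2 to 4, with no region over it in replicate 1. C27H6.5 in unc-41, a gene of synaptic vesicle recycling, had a pooled signal of 53.9 and ranks of 579, 6745, 2308 and 360. T27A3.9, which overlaps an exon of T27A3.8, had a pooled signal of 53.1 and ranks of 1624, 1250, 1436 and 366, all above the 90th percentile.

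C04G6.12, on the opposite strand in an intron of mpk-2 (a MAP kinase gene), had a pooled signal of 50.6 and ranked 1649, 2933, 933 and 322. T06C12.16, standalone with the A box letters, had a pooled signal of 50.005 and ranked 735, 1908 and 987 in replicates 1, 3 and 4, with none in replicate 2. The library that lacks a region is not the same from gene to gene. ZK484.9, opposite haf-9 (an ABC transporter gene), had a pooled signal of 47.3 and ranked 1004 and 399 in replicates 1 and 2, had none in replicate 3 and stood at 29957, near the bottom, in replicate 4. Y53F4B.47, 143 bp from the start of cmtr-1 (an mRNA cap methyltransferase gene) by its summit, had a pooled signal of 47.2 and ranks of 1686, 1119, 29447 and 4248. C16D9.11 in rol-3, a receptor tyrosine kinase gene, had a pooled signal of 46.6 and ranks of 1131, 25867, 331 and 405. In each of these 3 genes 1 library placed the region in the lower part of its list.

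Y38F2AR.14 had a pooled signal of 45.5 and ranks of 21972, 4118, 1763 and 438. F30H5.4, a standalone gene whose summit was 9464 bp from any protein-coding 5′ end, had a pooled signal of 45.2 and ranked 178, 4401 and 13712 in replicates 1, 3 and 4, with none in replicate 2. Replicate 1 alone ranked it near the top. W08G11.6, with a pooled signal of 45.1, ranked 1176, 2851, 620 and 5735, and T02E1.9, which overlaps an exon of spe-12 (a sperm activation gene) and whose signal was the lowest of the 31, ranked 1775, 1698, 2049 and 340. The latter was above the 90th percentile of every list.

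The region at a host gene's start was the strongest of all in 1 case. C06A1.9, in an intron of cdc-48.1, a gene for the p97 ATPase that extracts ubiquitinated proteins, had a pooled signal of 257.8, rank 24 of the IDR list, and ranked 98, 17, 18 and 21 of 30000 in the libraries. Its summit lay 155 bp from the start of cdc-48.1 and 498 bp upstream of the snoRNA gene, in a region at chrII:10563458-10563676. K11H12.12 and K11H12.13 in rpl-15, a gene of the large ribosomal subunit, shared a region (chrIV:654877-654982) with a pooled signal of 139.7 and ranks of 157, 71, 48 and 129. F54E7.10 and F54E7.11 in rps-12, of the small subunit, shared one with a pooled signal of 84.6 and ranks of 175, 352, 1078 and 332; the start of ska-3 was nearer to its summit (136 bp) than that of rps-12 (157 bp). All 4 libraries placed these 3 regions above the 90th percentile of their lists.

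F54C9.12 in iff-2, which encodes the translation factor eIF5A, had a pooled signal of 82.2 and ranks of 350, 296, 9021 and 152. F28D1.13 in rps-23 had a pooled signal of 47.4 and ranks of 1569, 1051, 29166 and 1316, and the start of dpm-3 was nearer to the summit than that of rps-23. Replicate 3 was the outlying library in both. Of 19 snoRNA genes in introns of cytosolic ribosomal protein genes, 16 had a pooled region, in 11 host genes, and 5 had an IDR peak. In 14 of the 16 the summit lay within 500 bp of the host's 5′ end, in the other 2, B0412.6 and B0412.7 in rps-29, it lay 66 bp from the start of snt-2, and in 0 of the 16 at the snoRNA gene's own end. The remaining host genes with ribosomal proteins were rpl-6, rpl-24.1, rpl-7A, rpl-26, rpl-7, rpl-2 and rpl-4, with pooled signals from 38.2 down to 16.6. For F28C6.11 in rpl-26 the start of cpf-1 was nearer to the summit (68 bp) than that of rpl-26 (277 bp). Of 2 snoRNA genes in chaperone genes, 1, F26D10.24 in hsp-1, had a region (13.98), and 0 of 2 in translation factor genes named eef, eif or eftu had one.

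The other 5 genes with an IDR peak had the strongest summit at neither place. T27A8.8, standalone on chromosome X, had a pooled signal of 142.7 with the summit 733 bp upstream and 1096 bp from the nearest protein-coding start, and ranked 82, 52, 58 and 64, near the top of every library. The region spans chrX:16056528-16056732. F56A11.14 in efn-4, an ephrin gene, had a pooled signal of 76.0 and ranks of 734, 262, 134 and 3375. ZK484.11 had 73.5 and ranks of 723, 794, 239 and 1092. F39B2.14, whose region lay 59 bp from the start of tmem-107 (a ciliary transition zone gene), had 66.1 and ranks of 365, 637, 11038 and 1418. F59C6.15, with its strongest summit 25 bp from the start of the neuropeptide gene nlp-4, had 56.4 and ranks of 5513, 426, 3710 and 2013. It held 2 IDR peaks in its window, and the weaker one had its summit within 100 bp of its own 5′ end.

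Over the 31 genes, 26 had a library region that overlapped the strongest pooled one by at least 1 bp in all 4 libraries and 5 in 3. In 14 of the 26 each of the 4 regions was at or above the 90th percentile of its list. The other 12 fell below it in at least 1 library, and in no library did all 31 hold a place among the 2000 strongest, where 28, 20, 21 and 25 of them stood in replicates 1 to 4.

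**Figure D5:**
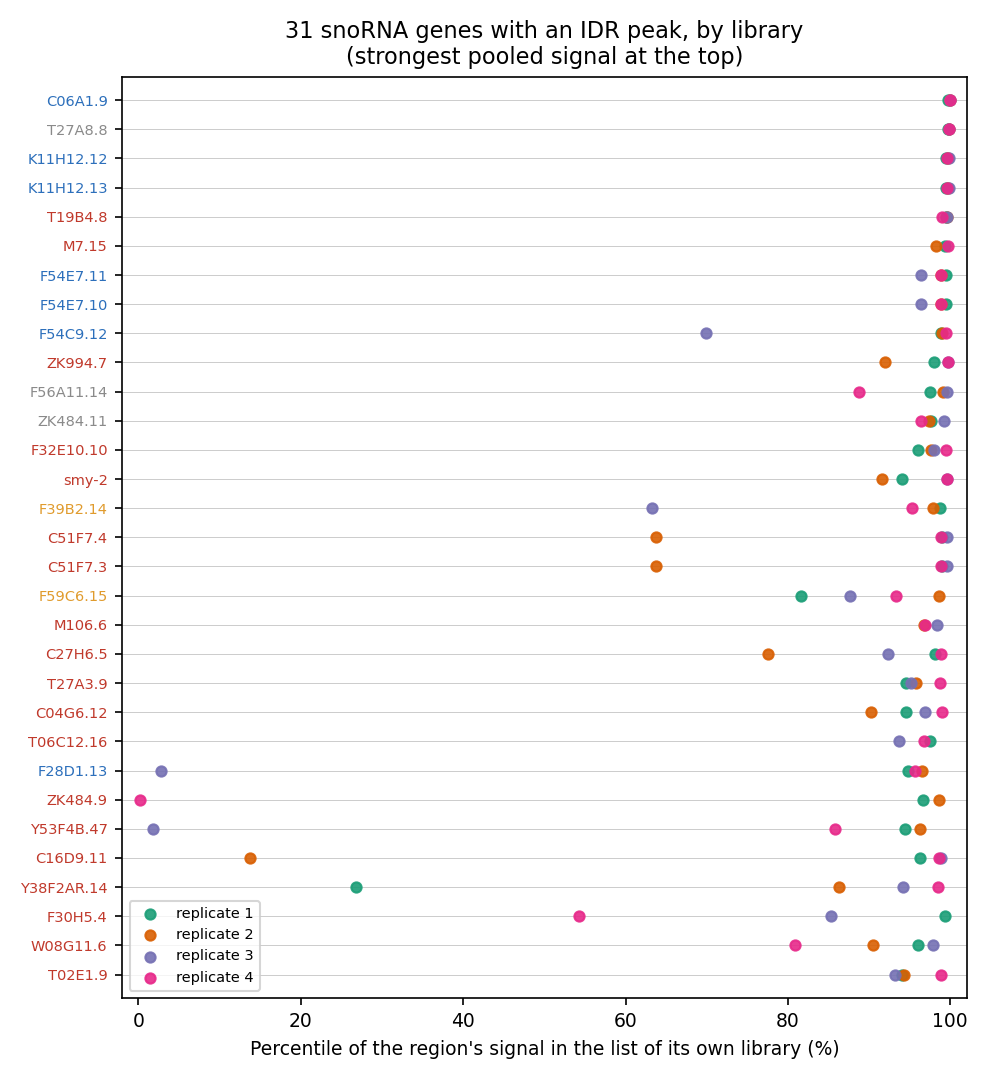
Percentile within its library's list (x axis, %) of the region over the strongest pooled region, for the 31 snoRNA genes with an IDR peak (rows, strongest pooled signal at the top); each point is 1 library. Gene names are red for own 5′ ends, blue for host 5′ ends, orange for other protein-coding 5′ ends and grey for none of these; most points lie above 90, and single libraries fall as low as 0.143 (ZK484.9, replicate 4).

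The 10 strongest genes without an IDR peak had pooled signals from 43.0 to 38.4. T23G11.12, 90 bp upstream by its summit and 94 bp from the start of T23G11.11, led with 43.0 and ranked 6239, 3374, 24368 and 458 in the 4 libraries. ZK20.9 had 40.8, F38E11.14 in cng-3 (a cyclic nucleotide-gated channel gene) 40.7, and B0412.6 and B0412.7 shared a region of 40.6. W06H8.17 had 40.4, Y43F8C.22 39.9, T03F7.8 39.9, T08B2.13 in fars-1 (a phenylalanyl-tRNA synthetase gene) 39.1 and F32B4.12 38.4. Among the 10, T23G11.12, F38E11.14, Y43F8C.22, T03F7.8 and T08B2.13, had the region at their own 5′ end. At the limits of the window, K02C4.7 (194 bp downstream, signal 20.1) and Y39A1A.30 (986 bp upstream, 16.9) were just inside, and T24H10.12 (1031 bp upstream, 31.0) and K02B9.10 (1040 bp upstream, 12.4) just outside.

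Letters of the snoRNA genes themselves were read as annotated. A box C (TGATGA) followed by a box D (CTGA) was found in 28 of the 346 genes, and ACA 3 bases before the 3′ end in 58. Of the 35 genes with the strongest region at a host start 19 ended in ACA and 3 had boxes C and D. At own 5′ ends 10 of the 59 ended in ACA and 8 had boxes C and D, and 41 matched neither. These exact letters leave most annotated genes unclassified, 260 of 346.

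Genes that make and use snoRNAs were read from a list of 41 names, of which 38 were found in the annotation. A pooled region lay in the window of 19 of the 38, beside 34.8% of all genes and 36.7% of protein-coding genes. Of those 19, 3 had an IDR peak, beside 6.0% of all genes and 7.27% of protein-coding genes with a pooled region. The 3 were nola-3 and Y48A6B.3, genes of the H/ACA protein complex, with pooled signals of 53.2 and 46.7, and nol-10, a nucleolar ribosome assembly gene, with 64.4. All 4 genes of the C/D protein core had a weaker region: fib-1 (fibrillarin) 40.9, nol-58 31.2, nol-56 22.3 and snu-13 17.4. The region of nol-56 was also that of K07C5.11, a snoRNA gene in its intron. The H/ACA genes dkc-1 and garr-1 had no pooled region, and of 12 genes of RNA polymerase III transcription 3 had one (snpc-3.4 29.1, rpc-11 13.2 and snpc-1.2 12.9).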

How the data were processed

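Lists of regions deposited by the authors for ce11 (WBcel235) were taken without change, 1 list for each of 4 libraries of 1 group, 1 pooled list and 1 IDR list; ce10 lists were not used here. The deposited signal of each region is the authors' own value, of unstated scale; no label or file record used here names the peak caller, IDR threshold or aligner. Read depth is unknown. Replicates are separate biological samples by their labels.

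Summits were placed relative to the 5′ ends of Ensembl release 115 genes with Python 3.11.15, numpy 2.4.6 and pandas 2.3.3 (plots: matplotlib 3.10.9). Where a window held several regions the strongest was taken; in sentences on single genes, a library's value is that of its strongest region overlapping the strongest pooled region. Backgrounds counted all genes the same way at any transcript start, so genes with several starts had more chances. A host contains the snoRNA gene in an intron on the same strand. Genome letters were read from the RefSeq copy of the same assembly. No significance test was made: the genes were chosen on the pooled regions, and 1 group has no contrast. The rule that marked a library as far from the others served as a description. In the pooled lists 0 measurement columns were left out. Steps were tested on simulated data.

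The genes and lists were chosen with earlier results of these data known. The genes named were those with an IDR peak, the 10 strongest without one, the 4 nearest the window limits, their hosts, and the listed host and pathway genes.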

Additional observations from a re-analysis of the deposited data

Results flagged for a closer look

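In 11 of 38 sets of 4 library values, 1 library stood far from the other 3, judged by its gap to the nearest value relative to the range. A chance rate of about 1 in 20 for this rule assumes normally distributed values. It cannot be applied to percentiles, which have an upper limit, of genes chosen for a high pooled signal. The sets are also not independent, since genes share regions and libraries, so the count is a description only. Replicate 4 gave 25% of the genes with GTTCGANNC a region at the 5′ end, against 55% to 60% in the others. For single genes the values are percentiles of the region within its library. Replicate 2 was the low one at C16D9.11 (13.8, the others 96.2 to 98.9) and at the region shared by C51F7.3 and C51F7.4 (63.8, the others 98.8 to 99.6). Replicate 3 was the low one at F28D1.13 (2.78, the others 94.8 to 96.5), F39B2.14 (63.2, the others 95.3 to 98.8), F54C9.12 (69.9, the others 98.8 to 99.5) and Y53F4B.47 (1.84, the others 85.8 to 96.3). Replicate 1 was the low one at Y38F2AR.14 (26.8, the others 86.3 to 98.5) and, within the top of every list, at C06A1.9 (99.7, the others 99.9). T19B4.8 was lowest in replicate 4 at 99.0, with the others from 99.5 to 99.6.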

How the results depend on the processing

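With other windows, overlap in place of summits, or regions of at least median signal, 117 to 217 snoRNA genes had a pooled region (170 as reported). Genes with an IDR peak numbered 21 to 36 under 5 of 6 alternatives (31 as reported) and 17 with only the IDR peaks of at least median signal; the count was 21 when the summit had to be nearer to the snoRNA gene than to any gene outside the class, and 22 when set against protein-coding genes alone, an alternative added after seeing the data. Support in all 4 libraries (64 genes) fell to 57 with overlap of the pooled region, 39 with overlap of at least 50% of it and 10 within the 2000 strongest regions of each library; leaving out each replicate in turn gave 75 to 86. Own 5′ ends held the strongest region of 34 genes within 50 bp and 92 within 200 bp (59 within 100 bp), limits added after seeing the data. These counts move because each setting admits fewer or more regions. Same-strand intronic genes (77) became 90 with hosts on either strand and 78 with hosts of any type. With hosts of any type, some genes counted as standalone overlapped an exon, among them T19B4.8, W06H8.17, Y23H5B.10, C41C4.11 and H09I01.2. The mean of the median percentiles (84.9) ranged from 83.8 to 87.4 without each replicate, and was 81.2 with the nearest region and 83.4 with each region once. The share of genes with GTTCGANNC and a library region at the 5′ end (50%) ranged from 46.7% to 58.3% without each replicate and was 40.6% with GTTCNANNC, both added after seeing the data. No paired analysis was possible because the series has 1 group. Unknown depth limits what the absence of a region in a library means.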
